A study of Mus musculus with 9 samples.

Results

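Transcription factor genes that T cell receptor (TCR) signals are known to induce were followed across 3 tissues of the mouse: Nr4a1, Nr4a2, Nr4a3, Egr1, Egr2, Egr3, Irf4 and Nfatc1. They are 8 of the 14004 genes in the table, listed by symbol, and were chosen by their levels in these same libraries, from an earlier look at the table. Their tissue levels are therefore given as a description, with intervals, and the counts of calls among them support nothing. RNA-seq was done on iNKT1 cells, the T-bet-expressing subset of invariant natural killer T cells, which recognise lipids on CD1d. Untreated C57BL/6 mice labelled Tbx21CreTg;Rosa26-LSL-YFP+/+ (a Cre recombinase under Tbx21 control and a YFP reporter that Cre switches on) gave 3 libraries each from thymus, liver and spleen. All 9 libraries share that genotype, so no library lacks the Cre or the reporter; the labels give no age. The replicates are described as independent, without saying what each came from, so the spread measured is that between libraries.

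TCR engagement raises calcium and activates the Ras and ERK kinases. Calcium activates calcineurin, which moves NFAT proteins into the nucleus, while ERK acts through serum response factor and its partners on the EGR genes. NR4A receptors are immediate early products whose levels in T cells are read as a trace of recent TCR signalling, and IRF4 accumulates with the strength of that signal. In developing iNKT cells, EGR2 is known to be needed for the lineage, downstream of the strong signal that selects these cells in the thymus.

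RefSeq promoter windows (GRCm38.p6, 250 bases before to 50 after a start) are given for 5 of the 8 genes: Nr4a1, Nr4a2, Nr4a3, Irf4 and Egr2. Those of Egr1, Egr3 and Nfatc1 are not shown. The stretches below show what these 5 promoters share and where they differ. Capitals mark TGACG, the half-site of the cAMP response element, on either strand (CGTCA is its reverse complement). In Egr2 they also mark a CArG box, the serum response factor site, and in Irf4 and Nr4a2 TATAAA, the TATA box (TTTATA on the other strand in Nr4a2).
Nr4a1, chr15:101266605-101266818, plus strand: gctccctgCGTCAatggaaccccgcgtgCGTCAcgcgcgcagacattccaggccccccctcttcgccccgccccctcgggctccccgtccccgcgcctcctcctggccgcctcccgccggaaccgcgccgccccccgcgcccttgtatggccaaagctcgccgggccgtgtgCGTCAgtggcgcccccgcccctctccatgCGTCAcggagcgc
Nr4a2, chr2:57124102-57124211, minus strand: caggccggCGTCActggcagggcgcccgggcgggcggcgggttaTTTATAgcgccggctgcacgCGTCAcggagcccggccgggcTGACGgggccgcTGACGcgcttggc
Nr4a3, chr4:48045066-48045170, plus strand: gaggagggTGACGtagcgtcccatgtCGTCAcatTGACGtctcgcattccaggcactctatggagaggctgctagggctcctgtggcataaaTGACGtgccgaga
Egr2, chr10:67537750-67537826, plus strand: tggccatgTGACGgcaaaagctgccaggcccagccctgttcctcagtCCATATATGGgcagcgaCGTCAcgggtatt
Irf4, chr13:30749199-30749220, plus strand: tccggctcTATAAAgttcctct

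Each NR4A window held 4 TGACG matches. Of all 32851 RefSeq windows of that length, 20.8% held at least 1 match and 0.231% held 4 or more. Of the 5 Egr2 windows, 1 per RefSeq start, 3 held 2 TGACG matches (5.01% of all windows hold that many) beside a CArG box (1.63% of windows). The Irf4 window held no TGACG. It held 1 TATAAA, as did the Nr4a2 window (13.6% of windows). Other motifs were searched on both strands. The full cAMP response element, TGACGTCA, which contains the half-site, was in 1.79% of all windows. It had no match in the 9 windows of these genes. The NFAT core, GGAAA, was in 61.3%, with 1 match each in the Nr4a2 and Irf4 windows, 3 in 1 Egr2 window and 1 each in 3 others. The EGR site, GCGNGGGCG, was in 5.55%, and 1 match each lay in the Nr4a1 and Nr4a2 windows. The NR4A monomer site, AAAGGTCA, was in 1.51% of all windows, the IRF site in 3.44% and the kappaB site in 8.46%, with 1 kappaB match in the Nr4a1 window and 2 in 1 Egr2 window. Neither the NR4A monomer site nor the IRF site was found in the 9 windows of these genes. In the GENCODE annotation the Nr4a1 stretch is intronic to 1 of 4 transcripts and the Egr2 stretch to 2 of 7. The Nr4a2 and Irf4 stretches lie upstream of every annotated exon, and the last 18 bases of the Nr4a3 stretch fall in an annotated first exon.

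By the GENCODE annotation of mm10, Nr4a1 spans 101254269 to 101274795 of chromosome 15, Nr4a2 57106830 to 57124003 of chromosome 2, and Nr4a3 48045153 to 48086447 of chromosome 4. Egr2 spans 67535475 to 67542188 of chromosome 10, Egr3 70077203 to 70082614 of chromosome 14, and Irf4 30749226 to 30766976 of chromosome 13. The values are summed over all exons of a gene.

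The deposited values are normalised read counts. Recovered reads per library ran from 3873055 in liver replicate 3, where 1 read is worth 6.04 units, to 39576312 in spleen replicate 3. Genes with a read numbered 10476 and 11180 in thymus replicates 1 and 2, against 11781 to 13038 in the other 7 libraries. The iNKT1 markers were present throughout, with Tbx21 between 1386 and 5762, Zbtb16 between 1216 and 3305, and Cd3e at 25652 or more in all 9 libraries. They were not all level. Klrd1 was 13285 to 20458 in thymus and 2173 to 4044 in liver and spleen, and Klrk1 11780 to 15445 and 2932 to 6279. Ifng was 24.3 in thymus replicate 2. By the mean of log2 values, 8 of the 14 listed markers were higher and 6 lower in liver than in thymus. In spleen 5 were higher and 9 lower. Of 6 tested markers of the iNKT2 and iNKT17 subsets, 4 were higher and 2 lower in liver than in thymus. In spleen all 6 were higher than in thymus. In the markers of other cells, several libraries stood apart. Spleen replicate 1 held the myeloid genes Csf1r at 1297 and C1qc at 883 and the B cell genes Cd79a at 625 and Cd79b at 587. Liver replicate 1 held Ms4a1 at 423, Cd68 at 1171 and Cd8a, of the immature thymocyte list, at 1116. Liver replicate 3 held the myeloid gene Lyz2 at 404 and Cd79a at 138. Thymus replicate 3 held the immature thymocyte gene Rag1 at 486, where the other 8 libraries had at most 0.815, and Xist at 16531 together with 7016 reads of Y-linked genes. Its Cd4, also on the immature thymocyte list, was the lowest of the 9 libraries, at 985. Replicate 2 of every tissue had Xist at 84543 or more with at most 21 Y-linked reads, and the other 5 libraries had Y-linked reads with little Xist. Albumin RNA (Alb) was 1172 to 1588 in the liver libraries and at most 268 elsewhere.

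Of the 8 genes, 3 were at their lowest in thymic cells. Irf4, Nr4a3 and Nr4a1 had higher values in all 3 liver and all 3 spleen libraries than in any thymus library, with ratios of the means between 19.4 and 143. Egr1 and Nfatc1 had ratios of liver or spleen to thymus means between 0.772 and 1.47, and their values overlapped in every comparison. Egr2 went the other way in liver, where its mean was 0.387 of the thymus mean. In bulk libraries, fewer cells with a transcript and less of it per cell cannot be told apart.

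**Figure D1:**
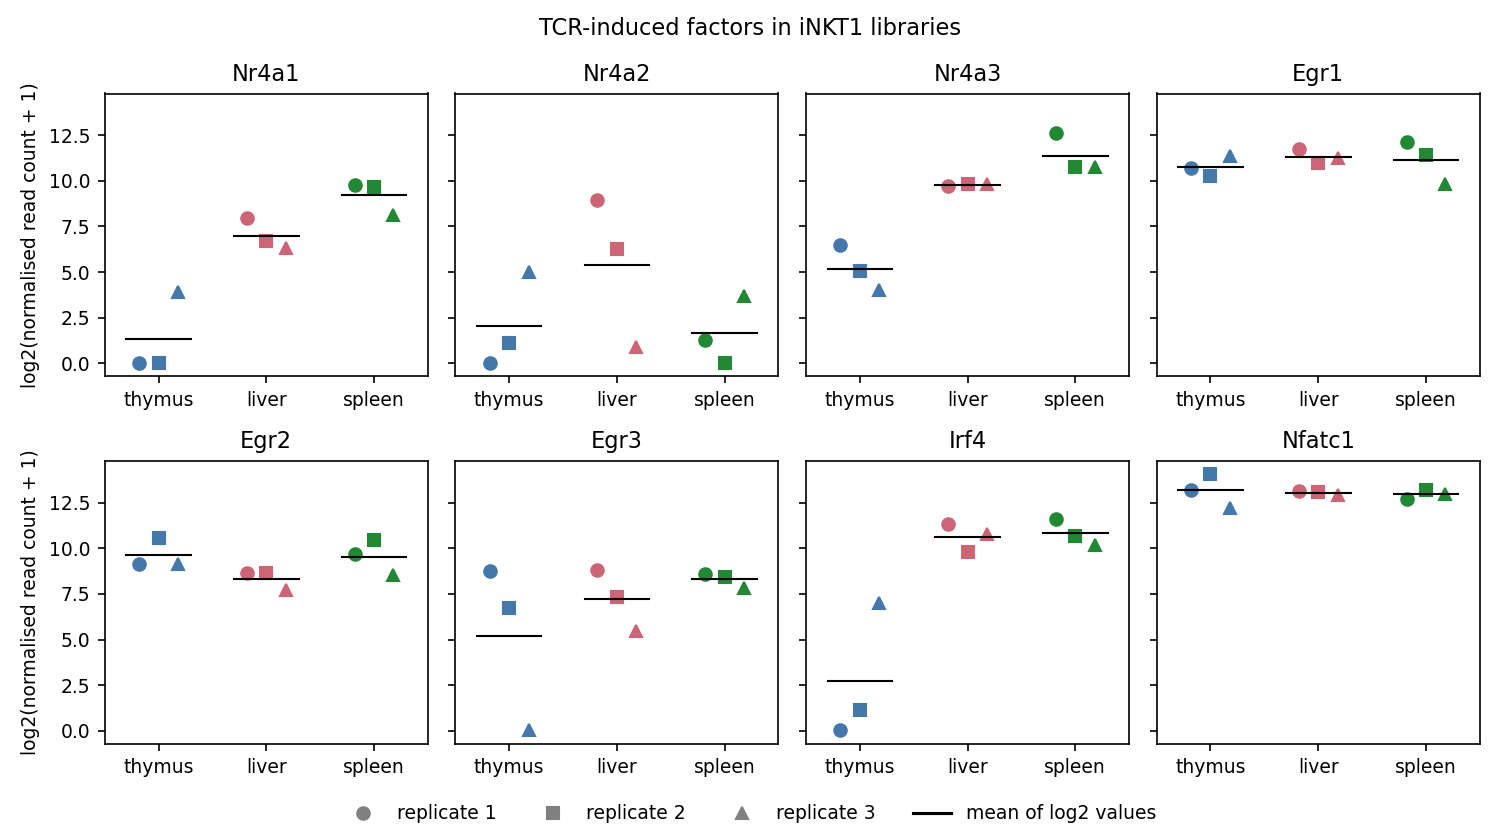
Level of each of the 8 genes in the 9 libraries, as log2(normalised read count + 1), with thymus in blue, liver in red and spleen in green; symbols mark the replicate and bars the mean of the 3 log2 values. Irf4, Nr4a1 and Nr4a3 are lower in all 3 thymus libraries than in every liver and spleen library, while Egr1 and Nfatc1 overlap across tissues.

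Irf4 encodes a factor that binds DNA with BATF or ETS partners and tunes effector programmes to TCR signal strength. It read 0.0213, 1.18 and 127 in thymus replicates 1, 2 and 3, from 0, 1 and 101 reads. It read 2578, 887 and 1784 in liver, and 3137, 1643 and 1177 in spleen. The lowest liver or spleen library was thus above the highest thymus library, and liver and spleen overlapped. The means were 42.6 ± 72.8 (SD, n = 3) in thymus, 1750 ± 846 in liver and 1986 ± 1024 in spleen, ratios of 41.1 and 46.6 to thymus.

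On the log2(value + 1) scale, Irf4 was 7.93 higher in liver than in thymus (SE 1.43, 95% interval 4.88 to 10.97). It was 8.12 higher in spleen (SE 1.43, interval 5.07 to 11.16), and liver and spleen differed by -0.19 (interval -3.24 to 2.86). In thymus, 2 libraries near 0 lower the mean of logs, so the differences from thymus are not cautious estimates. Almost all thymic Irf4 came from replicate 3, the library with Rag1. Without it, the 2 other thymus libraries averaged 0.603, and the differences were 10.06 and 10.25. A count model on the recovered reads (edgeR), which weighs the 101 reads more, gave 5.38 and 5.55.

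How often a gene of that abundance goes missing in thymus differed by level. Of all 2394 genes with a mean between 1000 and 3000 over the liver and spleen libraries, where Irf4 falls, 0.418%, 0.543% and 0.292% had at most 3 reads in thymus replicates 1, 2 and 3. Among 5744 genes with a mean between 100 and 1000, where Nr4a1 falls, those shares were 16.6%, 14.5% and 3.88%, against 1.01% to 3.8% in liver and spleen libraries. The bins were set on liver and spleen values alone, which by itself gives fewer low reads there than in thymus. Within these bins, low reads in thymus replicates 1 and 2 were rare at the level of Irf4 and common at that of Nr4a1. Their part in the results was not tested.

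Nr4a3 encodes NOR-1, a family member used as a reporter of NFAT-dependent TCR signals. It read 88.6, 32.4 and 15.1 in thymus replicates 1 to 3, 833, 913 and 897 in liver, and 6347, 1765 and 1717 in spleen. No value overlapped between any pair of tissues, in the order thymus, liver, spleen. The means were 45.4 ± 38.4, 881 ± 42.1 and 3277 ± 2659 (SD, n = 3 each). Nr4a3 was detected in every thymus library, from 12 to 79 reads, so its thymic level is low but measured.

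Its differences on the log2 scale were 4.60 for liver over thymus (SE 0.84, interval 2.81 to 6.38) and 6.20 for spleen over thymus (interval 4.42 to 7.99). Liver minus spleen was -1.60, with an interval of -3.39 to 0.18 that includes 0. Spleen replicate 1, the library with the most myeloid and B cell marker RNA, had the highest Nr4a3 of all. Without it the spleen mean was 1741 ± 34.3 (SD, n = 2), still above each liver library, and the differences were 5.58 over thymus and -0.98 for liver minus spleen.

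Nr4a1 encodes NUR77, the family member behind the common reporter of TCR signal strength. It read 0.0212, 0.0274 and 13.8 in thymus, from 0, 0 and 11 reads, and 251, 102 and 79.9 in liver. It read 884, 816 and 281 in spleen, and again no pair of tissues overlapped. The means were 4.63 ± 7.98, 144 ± 92.8 and 660 ± 330 (SD, n = 3 each). In thymus replicates 1 and 2 a count of 0 allows up to 3 reads, or 3.39 and 3.50 units, which covers counting error only.

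Nr4a1 was 5.68 higher in liver than in thymus on the log2 scale (SE 1.63, interval 2.21 to 9.15) and 7.88 higher in spleen (interval 4.41 to 11.35). Without thymus replicate 3 the thymus mean was 0.0243, from no reads, and the differences were 6.97 and 9.17. Liver minus spleen was -2.20, with an interval of -5.67 to 1.27. Liver replicate 3, with the fewest reads of all, contributed 13 Nr4a1 reads.

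Nr4a2, which encodes NURR1, had no tissue pattern that held over libraries. It read 0.021, 1.19 and 31.4 in thymus, 498, 77.2 and 0.846 in liver, and 1.44, 0 and 11.9 in spleen. The 3 tissues overlapped, and the liver mean of 192 ± 268 (SD, n = 3) came mostly from liver replicate 1. Its differences were 3.32 for liver over thymus (interval -1.33 to 7.97) and -0.40 for spleen over thymus (interval -5.05 to 4.25).

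Summed over the 3 genes, NR4A values were 33.6 to 88.6 in thymus, 978 to 1582 in liver and 2010 to 7232 in spleen, again without overlap. Nr4a3 made up 52.7% to 91.7% of that sum in the liver libraries and 68.4% to 87.8% in the spleen libraries. Nr4a2 made up at most 0.592% of it in spleen and 31.5% in liver replicate 1.

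Egr1 encodes the zinc finger factor that marks ERK signalling. It read 1660, 1236 and 2680 in thymus, 3428, 1990 and 2441 in liver, and 4509, 2753 and 913 in spleen. All 3 tissues overlapped, and both the highest and the lowest library were from spleen. Its differences on the log2 scale were 0.53 for liver over thymus (SE 0.54, interval -0.61 to 1.68) and 0.35 for spleen over thymus (interval -0.80 to 1.49). The sizes seen for Irf4 and Nr4a3 lie outside these intervals.

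Egr2 read 563, 1494 and 567 in thymus, 398, 404 and 213 in liver, and 822, 1386 and 370 in spleen. Every liver value was below every thymus value, while spleen overlapped both. The means were 874 ± 537, 339 ± 109 and 859 ± 509 (SD, n = 3 each). The log2 difference of liver over thymus was -1.26 (SE 0.73), and its interval of -2.81 to 0.29 includes 0. Egr2 was thus the 1 gene of the 8 whose liver values all lay below thymus.

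Egr3 encodes a close relative of EGR2. It read 435, 105 and 0.0443 in thymus, 448, 162 and 43.6 in liver, and 391, 348 and 226 in spleen. The groups overlapped, with thymus replicate 3 holding no read. That library sets the direction: liver over thymus was 2.03 (interval -1.93 to 5.98) with it and -0.54 without it, and spleen over thymus was 3.11 with it and 0.54 without it.

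The EGR sum was 2658 to 3247 in thymus, 2557 to 4274 in liver and 1508 to 5722 in spleen. Egr1 was its largest part in 8 of 9 libraries, at 60.5% to 90.5%, and Egr2 was the largest in thymus replicate 2, at 52.7%. The EGR sums overlapped in all 3 tissues, where the NR4A sums did not.

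Nfatc1 encodes NFATc1, whose short isoform is itself induced by NFAT; the values are per gene and do not separate isoforms. It read 9386, 17364 and 4827 in thymus, 9059, 8876 and 7644 in liver, and 6719, 9461 and 8186 in spleen. Thymus had both the highest and the lowest value, and the means were 10526 ± 6346, 8526 ± 770 and 8122 ± 1372 (SD, n = 3 each). The log2 differences from thymus were -0.12 in liver (interval -0.89 to 0.65) and -0.20 in spleen (interval -0.97 to 0.57). Their sign turned without thymus replicate 2, to 0.34 and 0.26.

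**Figure D2:**
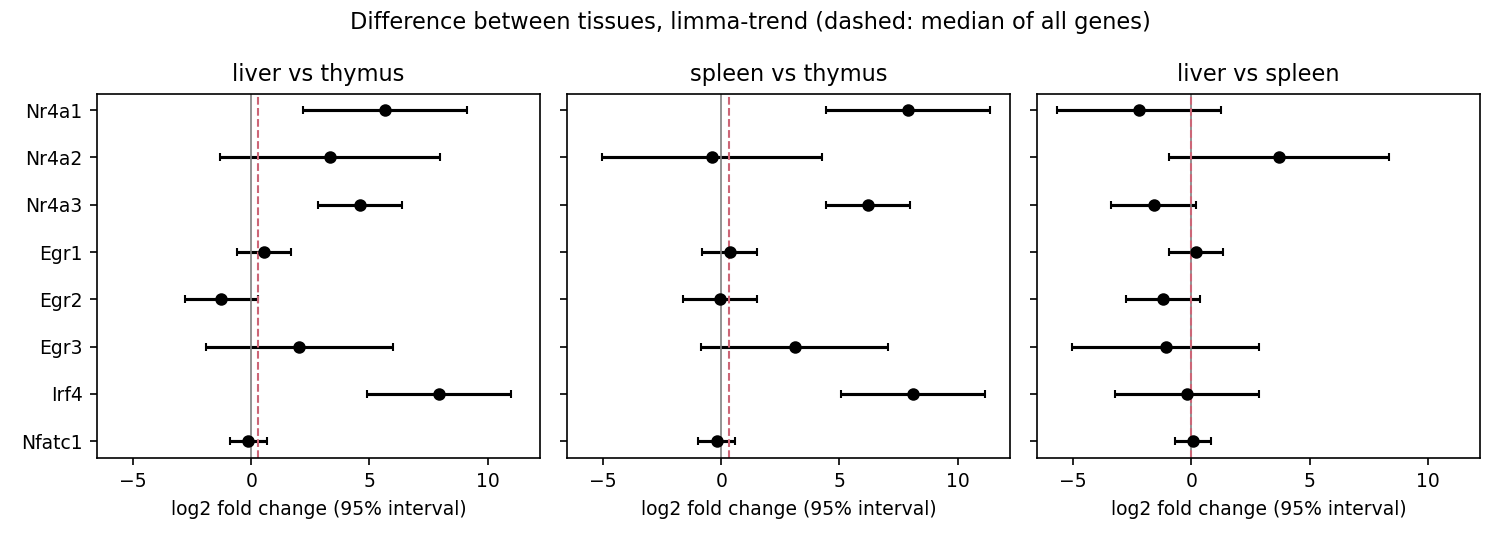
Log2 fold change of the 8 genes in the 3 comparisons, with 95% intervals from limma-trend over 3 libraries per tissue; the grey line is 0 and the dashed line the median of all 13309 genes. Against thymus, the intervals of Nr4a1, Nr4a3 and Irf4 lie above 0 in liver and in spleen, and between liver and spleen all 8 intervals include 0.

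All 8 genes passed the filter on low values. In liver against thymus 4 of the 8 had values that did not overlap, 3 higher and 1 lower in liver, where 15.3% of the 13309 genes tested had values that did not overlap (9.61% higher, 5.73% lower). In spleen against thymus 3 did, all higher in spleen, where 15.3% of all genes did not overlap (9.29% higher). In liver against spleen 2 did, Nr4a1 and Nr4a3, both lower in liver, where 12.7% of all genes did not overlap (6.77% lower). With an adjusted p under 0.05 in limma-trend, 2 of the 8 were called in liver against thymus, Nr4a3 and Irf4, where 0.323% of all genes were called. The same 2 were called in spleen against thymus, where 0.398% of all genes were called. In liver against spleen limma-trend called 0 of the 8, where 0.015% of all genes were called; 0 had an unadjusted p under 0.05, and edgeR and DESeq2 on recovered reads also called 0, where they called 0.016% and 0.174% of all genes. These counts restate the choice of the genes, and both thymus comparisons share the 3 thymus libraries.

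The median log2 difference of the 8 genes was 2.68 in liver over thymus, 1.73 in spleen over thymus and -0.64 in liver over spleen. Over all genes tested it was 0.29, 0.33 and -0.02. With libraries scaled to equal totals without mitochondrial genes, the median of all genes moved to 0.45 and 0.48 against thymus. Relative to the main medians, Irf4 was 7.64 and 7.79 above thymus, Nr4a1 5.39 and 7.55, Nr4a3 4.31 and 5.87, and Egr1 0.24 and 0.02. The count depended on the tool. EdgeR on recovered reads called 0 of the 8 in liver against thymus, where it called 0.136% of all genes, and 1 in spleen against thymus, where it called 0.256%. DESeq2 called 3 in each, Nr4a1, Nr4a3 and Irf4, where it called 3.46% and 3.9% of all genes. The count also depended on single libraries. In liver against thymus, leaving out any 1 liver or spleen library left 0 called, leaving out thymus replicate 2 left 1, and leaving out thymus replicate 3 gave 3. In spleen against thymus, 0 were called without spleen replicate 1, and 1 was called without spleen replicate 2 or 3 or liver replicate 1 or 3. Leaving out thymus replicate 3 gave 3 there as well, Nr4a1 being the added gene in both.

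To compare the genes with each other, values were divided by exon length. Nfatc1 had the highest level per kb in every tissue: 1410 ± 850 (SD, n = 3) for thymus, 1140 ± 103 for liver and 1090 ± 184 for spleen. Egr1 came next, with 415 ± 165, 584 ± 164 and 608 ± 401. In thymus Egr2 followed Egr1 at 257 ± 158, and Egr3, Irf4, Nr4a3, Nr4a2 and Nr4a1 came after it at mean levels per kb of 40.9 or less. In liver Irf4 followed Egr1 at 357 ± 172, before Nr4a3 at 147 ± 7.03. In spleen Nr4a3 followed Egr1 at 547 ± 444, before Irf4 at 405 ± 209, a pair that does not differ beyond its spread, nor does either differ so from Egr1 there.

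Ratios within a library do not depend on its scaling. Per kb, Nr4a3 stood at 0.00422 to 0.04 of Egr1 in the thymus libraries, 0.182 to 0.344 in liver and 0.48 to 1.41 in spleen. Irf4 stood at 0.408 to 0.688 of Egr1 in liver and 0.546 to 1.18 in spleen. In thymus it stood at 0.0432 in replicate 3 and at most 0.00187 and 0.00259 in replicates 1 and 2. Egr2 stood at 0.279 to 1.59 of Egr1 in thymus, 0.115 to 0.268 in liver and 0.241 to 0.664 in spleen. For Nr4a1 and Nr4a3 the ratio did not overlap between any pair of tissues.

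**Figure D3:**
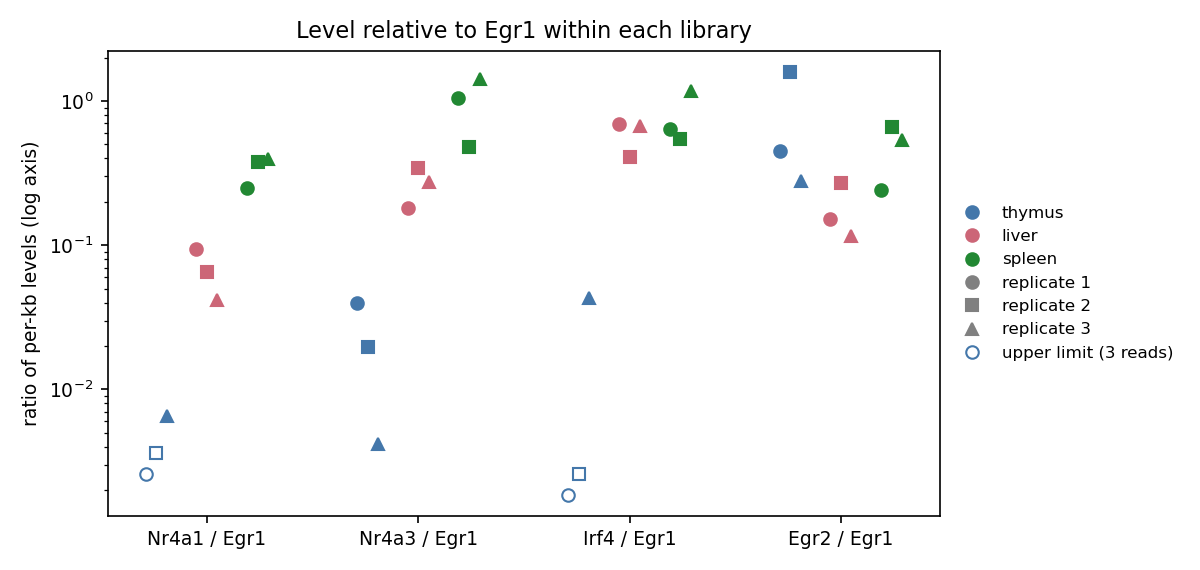
Level per kb of Nr4a1, Nr4a3, Irf4 and Egr2 divided by that of Egr1 in the same library, on a log axis; open symbols are upper limits set at 3 reads. Nr4a3 ranges from 0.00422 to 0.04 of Egr1 in thymus and from 0.48 to 1.41 in spleen, with liver between them.

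Over the 9 libraries, Nr4a1 and Irf4 varied most alike among the 8 genes, with a Pearson correlation of log2 values of 0.96. Taken as deviations from the tissue means, it was 0.92. Within tissues, however, Irf4 and Nr4a1 varied mostly in thymus, where replicate 3 held 101 and 11 reads and replicates 1 and 2 at most 1. Nr4a3 followed both across libraries (0.86 with Nr4a1 and 0.77 with Irf4) but not within tissues (-0.42 and -0.54). Egr1 and Egr2 had a correlation of 0.03. These are descriptions over 9 libraries, which differ in depth and fall into 3 tissues.

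Among 8871 genes with a mean of at least 100, those nearest to Irf4 by that correlation were Erf, an ETS repressor controlled by ERK (0.983), and Adam8, a membrane protease (0.982). Erf had means of 3.79 in thymus, 101 in liver and 200 in spleen. Nearest to Nr4a1 were P2rx4, an ATP-gated channel (0.975), and Erf (0.974). Nearest to Nr4a3 were Timm10, a mitochondrial import chaperone (0.991), and Cpt1a, which brings fatty acids into mitochondria (0.946). Cpt1a had means of 597, 1432 and 2790 in thymus, liver and spleen. The nearest genes were Setdb1 (0.91) and Smpdl3a (0.888) for Egr1, Kdm5a (0.908) and Rps27rt (0.893) for Egr2, Snx10 (0.941) and Mut (0.933) for Egr3, Zcchc2 (0.945) and Mrpl18 (0.909) for Nr4a2, and Zcchc9 (0.967) and Zfp729a (0.956) for Nfatc1. Of these 16 neighbours, 10 were kept with libraries scaled to equal totals without mitochondrial genes and 13 with a pseudocount of 4.

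The other genes of the pathway were listed in 6 groups of 133 different tested genes. Limma-trend called 0 of them in each comparison, where 23, 22 and 12 had an unadjusted p under 0.05 in liver against thymus, spleen against thymus and liver against spleen. That is 17.3%, 16.5% and 9.02% of them, against 11.6%, 11.7% and 3.03% of all genes tested. EdgeR called 0 in each, and DESeq2 on recovered reads called 7, 7 and 2. Of all genes with a DESeq2 adjusted p, 3.46%, 3.9% and 0.174% were called.

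Of 29 NFAT and calcium genes, 16 had a log2 difference from thymus above 0 in liver and 15 in spleen. DESeq2 called none of the 29. Their medians were 0.16 and 0.00, against 0.29 and 0.33 over all genes. Nfatc3, an NFAT protein of resting T cells, averaged 10206 ± 934 in thymus, 10322 ± 1691 in liver and 11476 ± 1755 in spleen (SD, n = 3 each).

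Of 25 genes of the Ras, ERK and serum response factor arm, 15 had a log2 difference from thymus above 0 in liver. In spleen 13 did, and the medians were 0.08 and 0.02. Rasgrp1, the activator of Ras in T cells, averaged 14353 ± 1635 in thymus, 21064 ± 2867 in liver and 19543 ± 2966 in spleen. Rps6ka3, an ERK-activated kinase, averaged 12484 ± 3501, 13072 ± 2979 and 10711 ± 835. Spry2, a feedback inhibitor of ERK signalling named here after its values were seen, read 3084, 814 and 2457 in thymus, 225, 400 and 461 in liver, and 958, 419 and 207 in spleen. Liver lay below thymus without overlap, and DESeq2 called it lower there. Of the ERK phosphatase genes, DESeq2 called Dusp2 lower in liver than in thymus, with means of 780 and 4089, and Dusp4 higher, with 97.5 and 0.0307. Single libraries weighed in these means: Dusp2 read 2606, 8371 and 1289 in thymus, and Dusp4 262, 5.12 and 25.3 in liver. Dusp6 read 1384, 2425 and 2513 in liver, above its 81.9, 618 and 822 in thymus, and was not called.

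Of 11 EGR corepressors and EGR-induced inhibitors of TCR signalling, 6 had a log2 difference from thymus above 0 in liver and 6 in spleen. Ptpn22, a phosphatase, averaged 11501 ± 5165 in thymus, 10667 ± 2270 in liver and 8505 ± 1328 in spleen. Sla, an adaptor that lowers TCR levels, averaged 6961 ± 713, 9784 ± 956 and 9422 ± 1323. The corepressors NAB1 and NAB2, which bind EGR proteins and are also named after their values were seen, went in opposite directions. Nab1 read 6496, 4416 and 8798 in thymus, 3279, 2155 and 2757 in liver, and 4130, 1805 and 2723 in spleen, lower in both without overlap. Nab2 averaged 681 ± 504 in thymus, 1281 ± 344 in liver and 2094 ± 1428 in spleen; neither gene was called by any of the 3 tools.

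Of 16 IRF family genes and IRF4 partners, 8 had a log2 difference from thymus above 0 in liver and 11 in spleen. Ikzf1, which encodes Ikaros, averaged 23847 ± 5336 in thymus, 19351 ± 2549 in liver and 16117 ± 9.75 in spleen. Ikzf3, Aiolos, averaged 16453 ± 5345, 14951 ± 2234 and 17008 ± 1438. Batf, whose product pairs with IRF4 on DNA and which was named after its values were seen, read 14.6, 390 and 169 in thymus, 963, 934 and 588 in liver, and 797, 820 and 736 in spleen. Its thymus values were below every other library, with adjusted p values of 0.276 and 0.269 in limma-trend.

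Of 32 other TCR-induced transcripts, 18 had a log2 difference from thymus above 0 in liver and 24 in spleen. The medians were 0.52 and 0.37. Icos, a costimulatory receptor, averaged 7870 ± 2200 in thymus, 5217 ± 819 in liver and 10035 ± 918 in spleen. Nr3c1, the glucocorticoid receptor, averaged 8221 ± 2372, 7205 ± 1378 and 7292 ± 1517. DESeq2 called Phlda1 higher in both liver and spleen than in thymus. In spleen against thymus it also called Tnfrsf9 higher, with means of 3189 and 681, and Tigit lower, with 0.482 and 244. It called Tnfrsf9 and Ikzf2 lower in liver than in spleen. Tigit read 0.0213, 55.5 and 677 in thymus and 1.45, 0 and 0 in spleen, so its thymus mean came mostly from replicate 3.

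Tissue digestion and cell sorting can induce stress genes, so 21 of these were listed too. In liver 11 and in spleen 14 had a log2 difference from thymus above 0, with medians of 0.22 and 0.50. Hsp90ab1 averaged 18749 ± 7847 in thymus, 20620 ± 4245 in liver and 25199 ± 6501 in spleen, and Hspa8 10431 ± 2604, 9891 ± 661 and 8594 ± 2295. Within the list, Jun and Socs3 had the pattern of Irf4 and were named after their values were seen. Jun read 0.0212, 1.19 and 6.32 in thymus, 50.4, 288 and 212 in liver, and 227, 349 and 406 in spleen. Socs3 read 0.0212, 0.0273 and 5.07 in thymus, 197, 233 and 569 in liver, and 219, 406 and 272 in spleen. DESeq2 called both against thymus in liver and spleen, while Fos averaged 12.6 or less in every tissue. The part of the stress genes in the levels of the 8 factors was not tested.

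B cells and macrophages also express several of these factors. Without Ighm, which every library held, the 7 B cell genes summed to 0.147 to 304 in thymus, 5.95 to 759 in liver and 117 to 4357 in spleen. The 7 myeloid genes summed to 10.6 to 315, 36.8 to 1298 and 56.9 to 4458. In spleen replicate 2 these sums were 117 and 56.9, with Cd22 at 65.3, Fcer2a at 51.6 and Cd68 at 32.3. There Cd79a, Cd79b, Ms4a1 and Csf1r were at 0, while Irf4 read 1643, Nr4a3 1765 and Nr4a1 816. In liver replicate 2 the sums were 5.95 and 36.8. There Cd79b, Ms4a1 and C1qc were at 0 and Csf1r at 3.4, while Irf4 read 887, Nr4a3 913 and Nr4a1 102. These libraries had the lowest of both sums in their tissue. Ighm, left out after values were seen, read 5260 in spleen replicate 2 and 6942 in liver replicate 2. It read 3157, 5350 and 4284 in thymus. The part of B cells and macrophages in the results was not tested.

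With thymus replicate 3, liver replicate 1 and spleen replicate 1 all left out, chosen after the data were seen, the log2 differences over thymus were 9.72 in liver and 9.86 in spleen for Irf4. They were 4.05 and 4.99 for Nr4a3 and 6.48 and 8.87 for Nr4a1. Liver replicate 3, which stayed in, had B cell and myeloid sums of 369 and 650. With 2 libraries per tissue limma-trend called 0 of the 8 and 0 of all genes in each comparison. In both thymus comparisons 3 of the 8 had an unadjusted p under 0.05 there, as did 2104 and 1989 of 12704 genes.

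**Figure D4:**
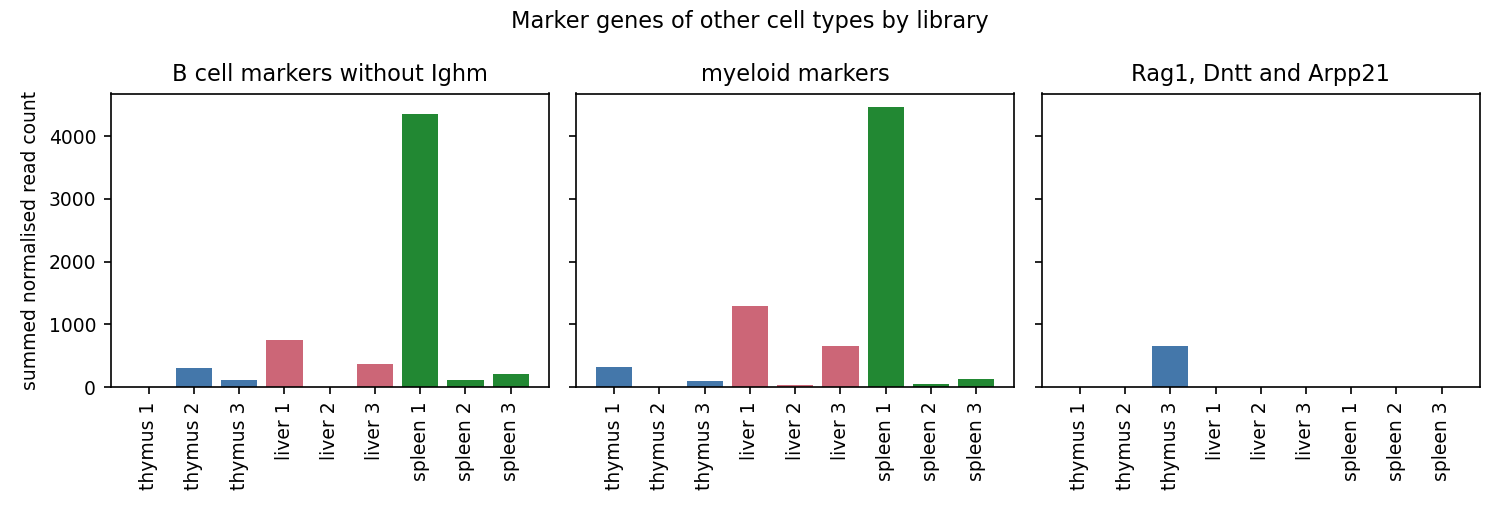
Summed normalised read counts of marker genes of B cells (without Ighm), myeloid cells and immature thymocytes (Rag1, Dntt and Arpp21) in each library, with thymus in blue, liver in red and spleen in green. Spleen replicate 1 has the highest B cell and myeloid sums, at 4357 and 4458, and thymus replicate 3 the highest sum of those 3 thymocyte genes, at 650. Leaving out Ighm and taking these 3 genes were both decided after values were seen. Over all 6 immature thymocyte genes measured, which include Cd4, thymus replicate 3 has the lowest sum, at 1922.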

How the data were processed

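RNA-seq was analysed in 9 libraries of iNKT1 cells, 3 each from thymus, liver and spleen. Per the submitters' processing notes, Trimmomatic 0.33, TopHat2 2.1.0, HTSeq 0.6.1, edgeR and the build mm10 were used. The deposited values are a signal, normalised read counts that are not whole numbers. Reads were recovered from the ladder of low values; of values worth 1 to 20 reads, 98.1% to 100.0% lay within 0.1 of a whole read in 8 libraries and 74.0% in liver replicate 3. Of the 14004 gene identifiers, 13359 matched a symbol. No column of per-sample values was left unused.

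The main test was limma-trend (limma 3.58.1, R 4.3.3) fitted to log2(value + 1) of the 13309 genes that reached 1 in 3 or more libraries, with a term per tissue, all 9 libraries, two-sided p-values and Benjamini-Hochberg adjustment at 0.05. It was tested on simulated data. Alternatives were a pseudocount of 4, no filter, another scaling, edgeR 4.0.16 and DESeq2 1.42.0 on recovered reads, a replicate block, the 6 libraries compared, a term for Xist, and leaving out each library. Lengths and positions came from GENCODE vM21 and promoters from RefSeq. Named besides the 8 genes were up to 4 called genes of each pathway list, or its 2 most abundant where none was called, the 2 nearest genes by correlation, and markers of other cells; some genes that this rule names are not reported here. The members and lists were chosen with earlier results of these data known.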

Additional observations from a re-analysis of the deposited data

How the results depend on the processing

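Counts of called genes depended on the tool and on single libraries. Against 43 genes for liver and thymus, 53 for spleen and thymus and 2 for liver and spleen, DESeq2 called 406, 458 and 20 and edgeR 17 and 32 in the thymus comparisons, fits of only the 6 libraries compared called 12, 16 and 6, and the fit of 2 libraries per tissue, added after seeing the data, called 0 in each. Leaving out 1 library gave 8 to 151, 9 to 140 and 0 to 3; the highest 2 counts came without thymus replicate 3. The count for liver and thymus moved by over 1.5 times without any liver or spleen library, that for spleen and thymus without liver replicate 1 or any spleen library, and that for liver and spleen without liver replicate 1 or 3. For spleen and thymus, 25 of the 53 genes were higher in spleen and 28 lower, and 22 were higher and 16 lower with equal totals without mitochondrial genes. Of the 8 factors, 2 were called against thymus in each comparison, DESeq2 called 3 and 3, a pseudocount of 4 gave 2 and 3, edgeR called 0 and 1, the 6-library fits 0 and 0, the fit of 2 libraries per tissue 0 and 0, and leaving out 1 library 0 to 3 in both. Of the pathway genes, where 0 were called, DESeq2 called 7, 7 and 2, leaving out 1 library gave 0 to 3 and 0 to 2 in the thymus comparisons, and the 6-library fit of liver and spleen called 1. The cause was not tested, beyond fewer libraries in some fits. A replicate block gave 42, 55 and 4 genes and left the count of called factors at 2, 2 and 0. Whether replicate numbers pair the libraries was not settled by these values. Sex-linked RNA followed the number for replicate 2, with Xist at 84543 or more and at most 21 Y-linked reads in every tissue. Thymus replicate 3 held both Xist and Y-linked reads, unlike replicate 3 of liver and spleen. Same-numbered libraries correlated at -0.001 to 0.089 in their deviations, and differently numbered ones at -0.087 to 0.048. For 4 of 9 libraries, the best match in both other tissues had the same number. Of 24 log2 differences of the 8 factors, 15 kept their sign under all 18 alternatives, among them Irf4, Nr4a1 and Nr4a3 against thymus; the other 9 were Nfatc1 in all 3 comparisons, Egr1 in spleen against thymus and in liver against spleen, Egr2 and Nr4a2 in spleen against thymus, Egr3 in liver against thymus and Irf4 in liver against spleen. Depth limits liver replicate 3 most, where 3 reads are 19.1 units.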

Other observations

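The median log2 difference from thymus depended on transcript base composition. The tested genes were split into 5 equal bins by GC content of the longest transcript, known for 95.6% of them. The median was 0.15 in the lowest bin and 0.46 in the highest for liver, and 0.18 and 0.44 for spleen. Irf4 and Nr4a3, at 47.6% and 48.4% GC, lay in the middle bin, where the medians were 0.28 and 0.33, and Nr4a1 and Egr1, at 57.0% and 57.3%, in the highest. The part of base composition in the differences of Irf4, Nr4a1 and Nr4a3 was not tested.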
